A study of Arabidopsis thaliana with 12 samples.

Results

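The retention of short introns, of up to 100 nucleotides (nt), in messenger RNA was read in seedlings of the Arabidopsis thaliana mutant rbm25-1 and of wild type. The introns were taken from the authors' deposited splicing tables as the events labelled intron retention whose spliced junction spans 100 nt or less, leaving out a few events whose values were damaged. This gave 1673 short introns among 9849 readable splicing events for rbm25-1 against wild type without treatment, and 1918 among 11170 events for the same genotypes under abscisic acid (ABA). The table of ABA against no treatment in wild type held 1819 short introns among 10502 events. Over the 3 tables there were 2497 different short introns in 1997 host genes, and 1134 of them stood in every table.

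The study examined bulked seedlings of the ecotype Col-0 in 4 groups of 3 samples each, 12 samples in all. The groups were rbm25-1 treated with ABA, untreated rbm25-1, wild type treated with ABA, and untreated wild type. All groups had 4 days of stratification, and all seedlings were 2 weeks old. ABA was sprayed at 0.1 mM for 6 hours, while the labels name no mock spray for the untreated groups. The comparisons ask how splicing differs in the rbm25-1 mutant without and with the hormone, and what ABA does in wild type. Whether the 3 samples of a group came from separate cultures is not stated, and the nature of the rbm25-1 allele is not given in the labels. Each table gives 1 value for a group and no values of single samples, so the spread between samples cannot be seen. The test behind the deposited p of the splicing tables is not given, so whether it takes that spread into account is unknown.

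An intron is removed when the U1 particle pairs with its 5′ splice site and the U2AF dimer binds the pyrimidine stretch and the 3′ splice site, after which the spliceosome forms across the intron. In plants introns are short and rich in T (U in the RNA), and failure to remove them, intron retention, is the commonest form of alternative splicing. Human RBM25 is an RNA-binding protein that associates with U1 proteins and affects the choice of 5′ splice sites. A retained intron in the coding part often brings a stop codon, and the transcript may then stay in the nucleus or be degraded.

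Some introns inside coding sequence that were named from the mutant comparisons are shown here. Their splice sites can thus be read beside the values that follow. Named introns in untranslated regions (UTRs) are described below but not printed. Each printed intron is written 5′ to 3′ on the strand of its gene, from the reference sequence of TAIR10.1. Capitals mark the first 6 and the last 14 bases, which enter the splice site scores. The first 4 had a deposited p under 0.05 in both mutant comparisons, and the last 3 were among the first 2 by p with higher retention in 1 of them.
AT5G65380, chr5:26123853-26123943, minus strand: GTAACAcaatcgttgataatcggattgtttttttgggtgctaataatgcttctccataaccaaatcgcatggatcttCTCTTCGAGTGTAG
AT3G45050, chr3:16476936-16477019, plus strand: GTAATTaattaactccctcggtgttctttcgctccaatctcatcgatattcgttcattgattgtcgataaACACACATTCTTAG
AGL31, chr5:25985003-25985088, plus strand: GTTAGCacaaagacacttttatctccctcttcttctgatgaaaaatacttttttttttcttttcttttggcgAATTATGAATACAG
RCE1, chr4:17341571-17341667, minus strand: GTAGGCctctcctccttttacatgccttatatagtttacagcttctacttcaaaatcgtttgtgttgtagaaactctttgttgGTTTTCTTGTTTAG
SCPL13, chr2:9779385-9779450, plus strand: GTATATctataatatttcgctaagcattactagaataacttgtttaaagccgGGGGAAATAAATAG
AT1G28060, chr1:9779826-9779904, plus strand: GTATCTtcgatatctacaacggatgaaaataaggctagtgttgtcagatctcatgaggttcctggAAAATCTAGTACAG
AT3G15351, chr3:5177294-5177385, plus strand: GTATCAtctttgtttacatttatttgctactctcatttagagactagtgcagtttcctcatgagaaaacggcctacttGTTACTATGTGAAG
All 7 introns begin with GT and end with AG. The bases before the final AG differ: 2 of the last 14 bases are T in SCPL13 and 9 of 14 in RCE1. The 3′ splice site score, a log2-odds score against all annotated Arabidopsis introns in which a higher value means closer to the common pattern, was 1.97 in SCPL13, 2.52 in AT3G45050, 3.57 in AT5G65380, 5.30 in AT1G28060, 5.35 in AT3G15351, 6.14 in AGL31 and 10.5 in RCE1. The T content ran from 29.1% in AT1G28060 to 45.4% in RCE1, both with higher retention in the mutant, and was 44.2% in AGL31, the only one of the 7 with lower retention.

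The labels were first checked on the mutated gene. Expression is given in FPKM, a level corrected for transcript length and library size, with q as the authors' adjusted p. RBM25 (AT1G60200) had 2.55 FPKM in untreated rbm25-1 and 9.15 FPKM in untreated wild type in the authors' deposited table (log2 fold change -1.84, q = 0.000132). With ABA it had 1.46 FPKM in rbm25-1 and 9.26 FPKM in wild type in the authors' deposited table (log2 -2.66, q = 0.000132). Nuclear genes of leaf photosynthesis were abundant in all 4 groups. Of 7 such markers with a value, 3 were called higher in untreated rbm25-1 at q under 0.05 and 7 in rbm25-1 with ABA. Their summed level was 5485 FPKM in rbm25-1 with ABA and 3395 in wild type with ABA, against 13812 in untreated rbm25-1 and 11039 in untreated wild type. Of 7 stomatal markers, 4 were called higher in rbm25-1 with ABA and 0 in untreated rbm25-1. Of root markers with a value, 1 of 6 was called higher in rbm25-1 with ABA, and 2 of 8 higher and 1 lower in untreated rbm25-1. Of all tested loci, 17.7% were called higher and 14.3% lower in rbm25-1 with ABA, and 6.15% and 7.2% in untreated rbm25-1. The 4 dry seed markers with a value under ABA summed to 10.5 FPKM in rbm25-1 and 1.79 FPKM in wild type, where CRU3 and OLEO1 were listed at 0, and the 2 with a value untreated summed to 0.568 FPKM in rbm25-1 and 2.86 FPKM in wild type. These are bulk seedlings, in which fewer cells of a type and less RNA per cell cannot be told apart, and the part of tissue make-up in the splicing results was not tested.

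No short intron passed an adjusted p of 0.05 in any of the 3 comparisons, and the differences below are therefore described from the authors' unadjusted p. In untreated rbm25-1, 33 short introns (1.97%) had higher and 13 (0.777%) lower retention than in wild type at an unadjusted p under 0.05, beside 2.39% and 3.74% of all events. With ABA the mutant had 55 higher (2.87%) and 16 lower (0.834%), beside 2.92% and 3.47% of all events. In wild type, ABA gave 19 higher (1.04%) and 21 lower (1.15%), beside 2.35% and 2.47% of all events. The share with higher retention in rbm25-1 was thus near or under that of all events, and the share with lower retention well under it. At an unadjusted p under 0.01 the counts were 4 higher and 4 lower in untreated rbm25-1, and 8 and 2 in rbm25-1 with ABA. Retention is measured as percent spliced in (PSI), which for this event type is the share of transcripts that keep the intron. The Benjamini-Hochberg adjustment ran over all readable events of each deposited table, and the smallest adjusted p of a short intron was 0.468 in untreated rbm25-1, 0.402 in rbm25-1 with ABA and 0.756 for ABA in wild type. Of all events, 0.0102%, 0.0179% and 0.00952% passed in the same 3 tables.

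Introns over 100 nt had 32 higher and 31 lower of 2133 in untreated rbm25-1, and 61 higher and 28 lower of 2431 in rbm25-1 with ABA. The widest gap between the length classes was in lower retention untreated, with 13 of 1673 short introns against 31 of 2133 longer ones, and no test of that difference was run because events are not replicates. Events other than retained introns had 170 higher and 324 lower PSI in untreated rbm25-1, while retained introns of any length had 65 higher and 44 lower.

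**Figure D1:**
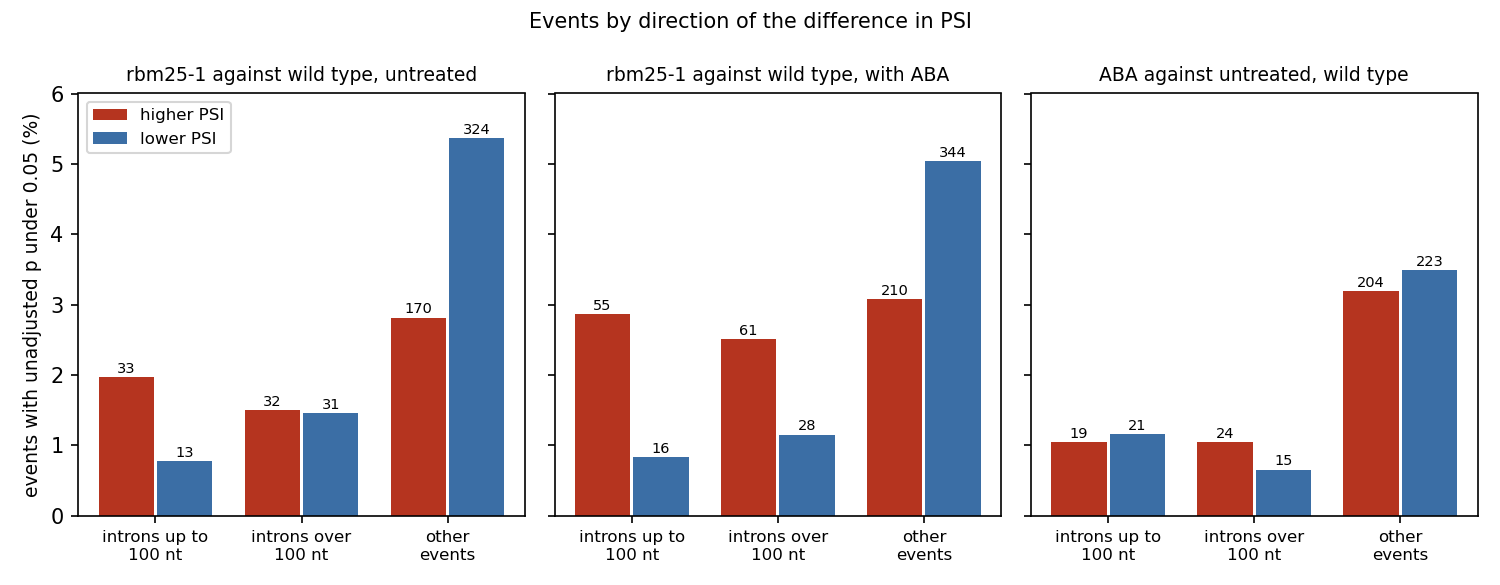
Share of events, in percent, with an unadjusted deposited p under 0.05 and higher or lower PSI, for introns up to 100 nt, introns over 100 nt and all other splicing events, in each of the 3 comparisons (numbers above bars are event counts, and there are no error bars because each event has 1 value per group). Short introns have 33 higher and 13 lower in untreated rbm25-1, 55 and 16 in rbm25-1 with ABA, and 19 and 21 for ABA in wild type.

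Most short introns were spliced in most transcripts in every group. The median PSI was 5.56% in untreated rbm25-1 and 5.56% in untreated wild type, and 5.31% in rbm25-1 with ABA and 4.55% in wild type with ABA. The median difference was 0 in each comparison. The mean difference was 0.42 percentage points in untreated rbm25-1, 1.03 with ABA and -0.06 for ABA in wild type. In untreated rbm25-1, 701 short introns had a PSI above and 720 below the wild-type value, and with ABA 869 stood above and 752 below. Over the 1204 short introns with a PSI in all 4 groups, the mean was 25.3% in rbm25-1 with ABA and 24.0% in wild type with ABA, and 24.6% in untreated rbm25-1 and 23.9% in untreated wild type. Of these introns, 204 stood at 0 in untreated rbm25-1 and 162 in untreated wild type, and 192 and 160 with ABA. At 100% stood 96 and 64 untreated, and 99 and 67 with ABA, in the same order. Depth is unknown, and its part in these extremes was not tested. The higher tail held more of the differences of 10 points or more at any p: 90 higher and 44 lower in untreated rbm25-1, and 104 higher and 43 lower in rbm25-1 with ABA. Within rbm25-1, set side by side without a p because no table used here compares those groups, 57 introns were at least 10 points higher with ABA and 34 lower, and in wild type 46 and 37.

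The short introns were of 2 kinds that the authors mark apart. Junctions marked as annotated made up 1380 of the 1673 in the untreated table, with a median PSI of 3.7% in rbm25-1 and 4.17% in wild type. The other 293 junctions are marked as not annotated, and their median PSI was 100% in rbm25-1 and 95.4% in wild type. The median of their differences was nevertheless 0, and the mean difference was 0.56 points. Of those marked unannotated in any table, 80.9% lay within an annotated exon. Such an event is then a small stretch of exon that a few transcripts lack (an exitron where it is coding). The mark is the authors', and 78 of these 497 junctions (15.7%) are introns in the TAIR10.1 annotation used here. At annotated junctions 24 introns were higher and 9 lower in untreated rbm25-1, and 50 higher and 10 lower in rbm25-1 with ABA. At unannotated junctions the counts were 9 and 4 untreated, and 5 and 6 with ABA. With ABA the lean towards higher retention was thus seen at annotated introns and not in the count at unannotated ones, a difference that was not tested.

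The 2 mutant comparisons share no samples, and 12 short introns had an unadjusted p under 0.05 in both. All 12 differed in the same direction, 9 with higher and 3 with lower retention in rbm25-1. Their hosts range from the core enzyme of transcription to a repressor of flowering. These 12 are 33.3% of the 36 introns under that p untreated and 19.4% of the 62 under it with ABA, counted among the 1204 introns present in both tables.

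Introns after the stop codon gave 4 of the 9 with higher retention. NRPB1 (AT4G35800) encodes the largest subunit of RNA polymerase II, and its last intron, of 88 nt, lies in the 3′ UTR. In the authors' deposited tables its PSI was 20.7% in untreated rbm25-1 and listed at 0 in untreated wild type (p = 0.0406), and 28.9% in rbm25-1 with ABA and listed at 0 in wild type with ABA (p = 0.0472). No transcript that keeps this intron was thus found in either wild-type group, at a depth that is unknown. AT1G79090 encodes a PAT1-type protein of messenger RNA decay, and its last intron of 90 nt was retained in 74.2% of transcripts in untreated rbm25-1 and 53.1% in wild type (p = 0.0221), and in 86.7% with ABA in rbm25-1 and 60.4% in wild type (p = 0.0236), in the authors' deposited tables. AT5G37310, of the EMP70 family of endomembrane proteins, had 14.3% in untreated rbm25-1 and a listed 0 in wild type (p = 0.0408), and 15.4% and 3.57% with ABA (p = 0.0439), in the authors' deposited tables. The fourth is an 80-nt intron shared by the overlapping genes AT1G19396 and AT1G19397, between which its reads cannot be assigned. Its PSI was 52.5% in untreated rbm25-1 and 28.8% in wild type (p = 0.0291), and 62.2% in rbm25-1 with ABA and 30.7% in wild type (p = 0.00835), in the authors' deposited tables. In all 4 the mutant value under ABA was the highest of the 4 groups.

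Before the start codon, AT3G17100 stood out by size. It encodes a bHLH-type transcription factor (AIF3), and its single annotated intron, of 82 nt, was retained in 37.5% of transcripts in untreated rbm25-1 and 15.1% in wild type in the authors' deposited table (p = 0.0195). With ABA the authors' deposited table gives 54.8% in rbm25-1 and 29.3% in wild type (p = 0.0229). ABA in wild type gave the same intron a difference of 14.2 points (unadjusted p = 0.0756 in the authors' deposited table), in a comparison that shares its samples with those of wild type here. AT5G36290, of the UPF0016 family of membrane proteins, had 38.05% in untreated rbm25-1 and 29.6% in wild type (p = 0.0487), and 39.8% and 27.0% with ABA (p = 0.0326), in the authors' deposited tables.

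Inside coding sequence, RCE1 (AT4G36800) encodes the enzyme that conjugates the ubiquitin-like protein RUB1 to cullins, a step of auxin signalling. Its intron printed above was seldom retained, with a PSI of 5.06% in untreated rbm25-1 and 1.28% in wild type (p = 0.0480), and 5.67% in rbm25-1 with ABA and 1.06% in wild type (p = 0.00067), in the authors' deposited tables. The difference is small in points, at 3.78 and 4.61. AT3G45050 had 8.43% in untreated rbm25-1 and 0.95% in wild type (p = 0.0279), and 12.9% in rbm25-1 with ABA and a listed 0 in wild type (p = 0.0302), in the authors' deposited tables. Its retention brings an in-frame stop. AT5G65380 encodes a transporter of the MATE family, which export small molecules. Its unannotated 91-nt junction lies inside a coding exon, and the stretch was kept in 91.8% of transcripts in untreated rbm25-1 and 77.4% in wild type (p = 0.0143), and in 98.1% and 89.5% with ABA (p = 0.0253), in the authors' deposited tables.

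The 3 introns with lower retention in both mutant comparisons belong to genes of other pathways. AGL31 (AT5G65050), also called MAF2, is a MADS-box repressor of flowering from the FLC family. The intron printed above had a PSI of 18.8% in untreated rbm25-1 and 35.5% in wild type (p = 0.00364), and 15.6% in rbm25-1 with ABA and 31.6% in wild type (p = 0.0463), in the authors' deposited tables. Reads of AGL31 may be shared with its near-identical neighbours of the MAF cluster, and how the authors assigned such reads is not given in the sources used here. HEME1 (AT3G14930) encodes uroporphyrinogen decarboxylase of tetrapyrrole synthesis, and its intron in the 3′ UTR had 9.16% in untreated rbm25-1 and 25.7% in wild type (p = 0.00967), and 10% and 30.2% with ABA (p = 0.0111), in the authors' deposited tables. MAP2B (AT3G59990) encodes a methionine aminopeptidase, which trims the first residue of new proteins. Its intron in the 5′ UTR was kept in 86.2% of transcripts in untreated rbm25-1 and 91.7% in wild type (p = 0.0303), and in 84.9% with ABA in rbm25-1 and 95.9% in wild type (p = 0.0087), in the authors' deposited tables. As to host expression, HEME1 had a log2 fold change of 0.29 with ABA (q = 0.0423), AGL31 0.14 (q = 0.452) and MAP2B 0.20 (q = 0.164), in the authors' deposited table.

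**Figure D2:**
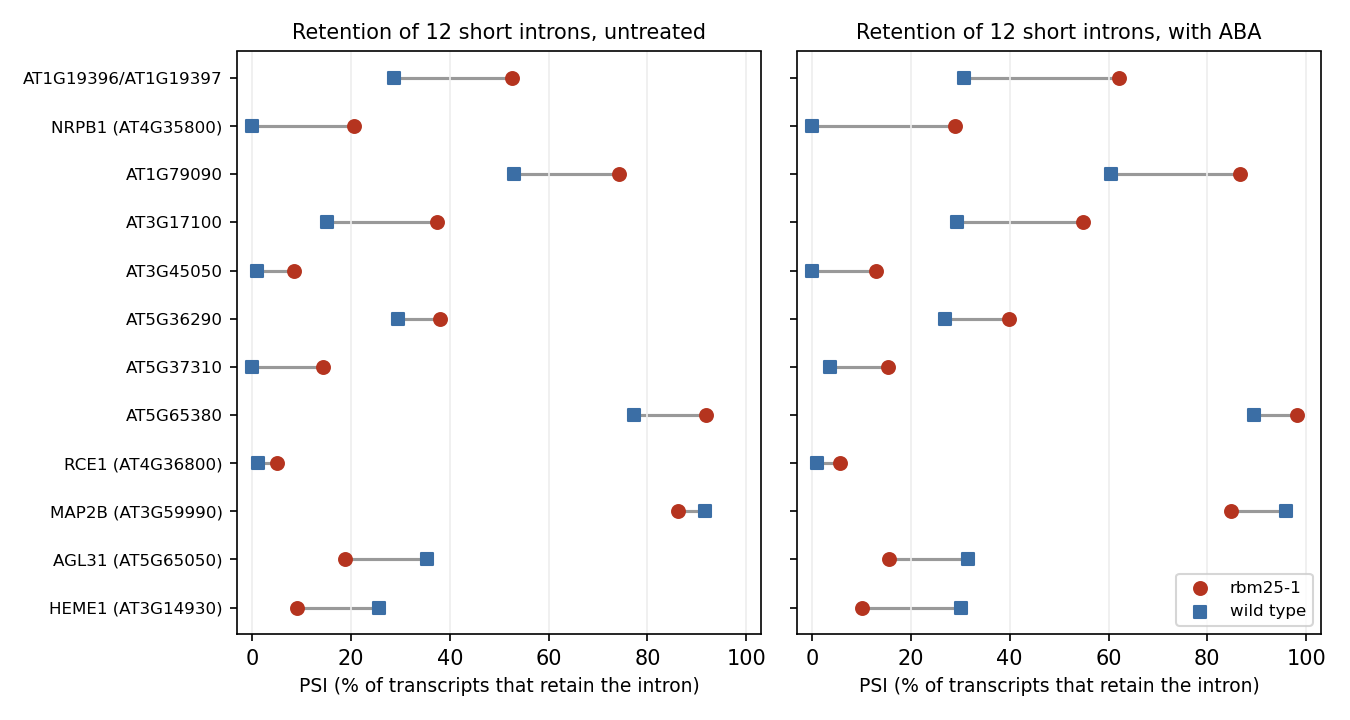
PSI (percent of transcripts that retain the intron) of the 12 short introns with an unadjusted p under 0.05 in both mutant comparisons, in rbm25-1 (circles) and wild type (squares), untreated on the left and with ABA on the right. Each point is the authors' value for a group, so no error bar can be drawn, and 9 introns stand higher and 3 lower in rbm25-1 in both panels.

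Introns chosen by p in one mutant comparison mostly differed in the same direction in the other, whatever their p there. Of 49 with higher retention in rbm25-1 under ABA, 48 were higher and 1 was level in untreated rbm25-1, with a median difference of 12.8 points under ABA and 8.12 points untreated. Of 26 chosen as higher in untreated rbm25-1, 22 were higher, 2 lower and 2 level under ABA, with medians of 11.6 and 8.99 points. Of 13 lower under ABA, 11 were lower and 2 higher untreated, and of 10 lower untreated, 9 were lower and 1 level under ABA. Over all 1204 introns the differences had Pearson's r of 0.622 and Spearman's rho of 0.539, given as a description across introns that share libraries, depth and sequence composition. At least 10 points of difference in both comparisons, at any p, were seen in 49 introns that were higher, 11 that were lower and 1 with opposite directions.

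**Figure D3:**
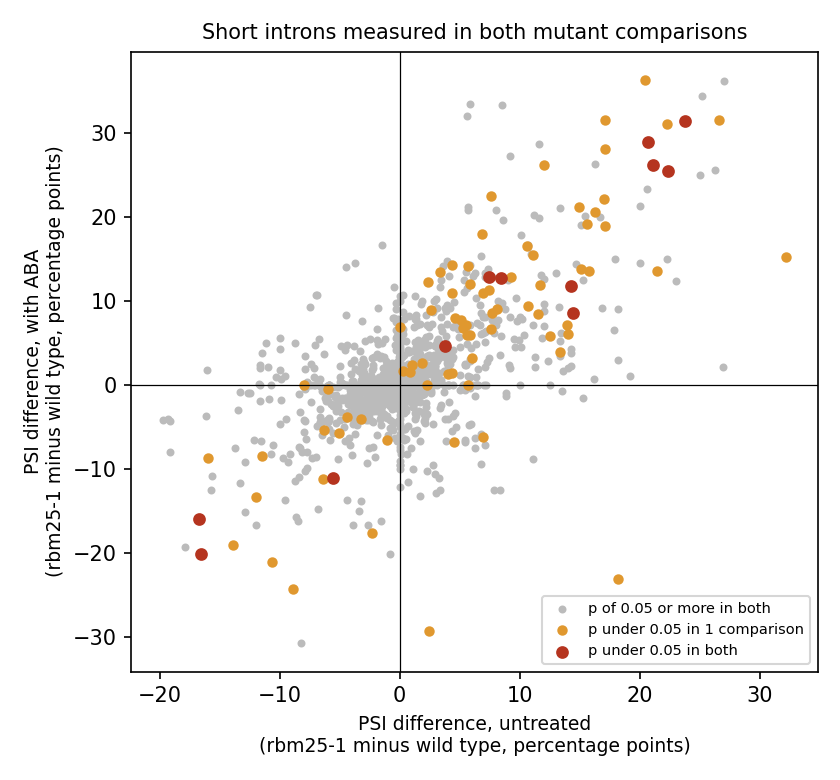
Difference in PSI (rbm25-1 minus wild type, in percentage points) of 1204 short introns, untreated on the horizontal axis and with ABA on the vertical axis, coloured by whether the unadjusted p was under 0.05 in neither, 1 or both comparisons. The 12 introns under 0.05 in both lie in the upper right (9) and the lower left (3) of the plot, and each point is 1 intron with 1 value per group.

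Other introns were named from the untreated comparison, and those of SCPL13, AT1G28060 and AT1G78180 were not analysed here in rbm25-1 with ABA. SCPL13 (AT2G22980) encodes a serine carboxypeptidase-like protein, and its second intron, of 66 nt, had a PSI of 22.2% in untreated rbm25-1 and 7.5% in wild type in the authors' deposited table (p = 0.00393). Its host gene was itself lower in untreated rbm25-1, at 11.7 FPKM against 18.6 FPKM in wild type (log2 -0.67, q = 0.000132 in the authors' deposited table). AT1G28060, also named RDM16, encodes the PRP3-type splicing factor of the U4/U6 particle, which also acts in RNA-directed DNA methylation. Its unannotated 79-nt stretch of coding exon was kept in 80.95% of transcripts in untreated rbm25-1 and 54.5% in wild type (p = 0.00723), and the gene had a log2 fold change of 0.55 (q = 0.000132), in the authors' deposited tables. SIZ1 (AT5G60410) is a SUMO ligase that restrains ABA signalling, and its last annotated intron, in the 3′ UTR, was retained in 100% of transcripts in untreated rbm25-1 and 84.2% in wild type (p = 0.00835), in the authors' deposited table. Under ABA the SIZ1 values were 100% in rbm25-1 and 86.4% in wild type with p = 0.204 in the authors' deposited table, a difference of like size. DEG7 (AT3G03380), a serine protease gene, had 82.6% in untreated rbm25-1 and 68.7% in wild type (p = 0.0212), and 80.3% in rbm25-1 with ABA and 73.1% in wild type (p = 0.0903), in the authors' deposited tables. AT5G35160 had 85.7% in untreated rbm25-1 and 75% in wild type (p = 0.0148), and 83.3% in rbm25-1 with ABA and 73.9% in wild type (p = 0.133), in the authors' deposited tables. AT1G78180 had 100% in untreated rbm25-1 and 87.5% in wild type (p = 0.0129 in the authors' deposited table).

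On the lower side, AT1G22630 had the smallest p of any short intron in the untreated table. Its unannotated 94-nt stretch lies in the 5′ UTR and was kept in 61.7% of transcripts in untreated rbm25-1 and 75.6% in wild type (p = 0.00159, adjusted p = 0.468 by Benjamini-Hochberg), from the authors' deposited p. The difference was -13.9 points untreated and -19.1 points with ABA, the second with p = 0.256 in the authors' deposited table. SOS4 (AT5G37850) encodes a pyridoxal kinase needed for salt tolerance, and its first intron, in the 5′ UTR, had 10.2% in untreated rbm25-1 and 21.7% in wild type (p = 0.0447 in the authors' deposited table). Only 4 introns were lower by 10 points or more at that p in untreated rbm25-1 (these 2, AGL31 and HEME1) and 19 were higher, beside 1.83% and 1.04% of all events.

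With ABA, more introns had higher retention in rbm25-1, and 34 of the 55 differed by 10 points or more, against 11 of the 16 with lower retention. Of all events, 1.41% were higher and 1.64% lower by that much in this comparison. AT3G15351 had the widest gap among the introns named from this comparison, with a PSI of 42.1% in rbm25-1 with ABA and 5.71% in wild type with ABA (p = 0.00148), and 25% untreated in rbm25-1 and 4.55% in wild type (p = 0.179), in the authors' deposited tables. CYSB (AT3G12490), a cystatin that inhibits cysteine proteases, had the smallest p of the short introns in this comparison, 0.000645. Its first intron, in the 5′ UTR, was retained in 100% of transcripts in rbm25-1 with ABA and 86.1% in wild type, and in 100% and 84.9% untreated (p = 0.334), in the authors' deposited tables. A like pair of values thus had very different deposited p in the 2 comparisons.

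Enzymes of primary metabolism were among the hosts. FHY1 (AT1G79790 in the annotation), an FMN hydrolase gene of riboflavin metabolism, had 18.8% in rbm25-1 with ABA and 4.62% in wild type (p = 0.00526), in the authors' deposited table. AT5G41670 encodes a 6-phosphogluconate dehydrogenase of the pentose phosphate pathway. Its intron in the 3′ UTR had 70.8% in rbm25-1 with ABA and 51.5% in wild type (p = 0.00645), while the gene stood at 213 FPKM against 105 FPKM (log2 1.02, q = 0.000132), in the authors' deposited tables. NF-YB10 (AT3G53340), a subunit of a CCAAT-binding transcription factor, had 32.8% in rbm25-1 with ABA and 6.52% in wild type (p = 0.0157), and AT1G33050 had 27.9% and 5.36% (p = 0.0193), in the authors' deposited table. For all 6 of these introns the untreated difference had the same sign, from 5.74 points in FHY1 to 20.4 points in AT3G15351, without an unadjusted p under 0.05.

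Among introns with lower retention under ABA, AT2G05518 stood by p between MAP2B and HEME1. It is an annotated non-coding RNA gene, and its intron had a PSI of 18.2% in rbm25-1 and 39.3% in wild type (p = 0.01 in the authors' deposited table). WRKY26 (AT5G07100), a transcription factor gene of the WRKY family, had 9.09% in rbm25-1 with ABA and 33.3% in wild type with ABA (p = 0.0238 in the authors' deposited table). Without ABA the mutant had 6.9% at this intron and wild type 15.8%. AT1G21920 had 85.3% in rbm25-1 with ABA and 96.5% in wild type (p = 0.0147), AT2G47010 had 44.0% and 73.3% (p = 0.0265), and AT1G73430 had 76.9% and 100% (p = 0.0336), in the authors' deposited table. ARAC1 (AT2G17800), a small GTPase of the ROP family that acts in ABA responses, had 86.7% in rbm25-1 with ABA and 100% in wild type (p = 0.0373 in the authors' deposited table). AT1G73430 and AT2G47010 are the 2 introns whose difference had the opposite sign untreated, at 18.2 and 2.48 points.

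ABA in wild type left short introns with about equal counts in both directions, and 2 of its 40 introns under an unadjusted p of 0.05 were under 0.01. Both were lower with ABA. By 10 points or more 9 were higher and 9 lower, beside 0.876% and 0.847% of all events. An intron of MCM3 (AT5G46280), a subunit of the replicative helicase, was listed at 0 with ABA and had 53.3% untreated (p = 0.00468 in the authors' deposited table), and a neighbouring intron of the same gene was listed at 0 and had 50% (p = 0.0438 in the authors' deposited table). The MCM3 gene had 3.84 FPKM with ABA and 2.22 FPKM untreated in the authors' deposited table, both low levels. AT2G38823 had 46.2% with ABA and 100% untreated (p = 0.0088), at a gene level of 4.35 FPKM with ABA and 0.396 FPKM untreated, in the authors' deposited tables. MYB106 (AT3G01140), a regulator of trichome and cuticle formation, had 24.1% with ABA and 74.2% untreated (p = 0.0336 in the authors' deposited table). Less retained were also introns of PLDP1, AT5G25280, ECT5 and ORP4C, with PSI 13.3 to 22.4 points lower with ABA in the authors' deposited table.

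Higher with ABA were 2 introns of CEL5 (AT1G22880), a cellulase gene, at 100% with ABA against 57.6% untreated (p = 0.0155) and at 100% against 68.2% (p = 0.019), in the authors' deposited table. CEL5 itself had 3.08 FPKM with ABA and 7.89 FPKM untreated in the authors' deposited table. HDA14 (AT4G33470), a histone deacetylase gene, had 18.5% with ABA and 6.9% untreated (p = 0.0166), and WRKY26 had 33.3% and 15.8% (p = 0.0213), in the authors' deposited table. The glucosyltransferase gene UGT85A4, AT4G37432, AT3G13061 and AT1G51430 completed the 8 named introns with higher retention, at 10.3 to 27.1 points. Of the 19 higher introns 4 overlap another annotated gene, as do 4 of 20 lower ones with a strand, against 5.07% of the introns with a p of 0.05 or more. Whether the libraries keep strand is not given in the sources used here, so reads of such overlapping genes cannot be told apart. None of the 12 introns shared by the mutant comparisons was under 0.05 for ABA in wild type, where 11 of them had a value and p ranged from 0.066 to 0.995.

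Untranslated regions held a larger share of the introns called in either direction in rbm25-1 than of the short introns as a whole. Of the higher introns, 15.2% untreated and 25.5% with ABA lay in the 5′ UTR, and 27.3% and 16.4% in the 3′ UTR. Of the lower introns, 46.2% and 25% lay in the 5′ UTR, and 7.69% and 6.25% in the 3′ UTR. All short introns of these comparisons had 11.5% and 11.7% in the 5′ UTR, and 6.35% and 6.33% in the 3′ UTR. Short introns in the 3′ UTR were higher in 9 and lower in 1 of 106 in untreated rbm25-1 (8.49% and 0.943%), and in 9 and 1 of 121 with ABA (7.44% and 0.826%). In the coding part 18 were higher and 5 lower of 1196 untreated (1.51% and 0.418%), and 29 and 8 of 1397 with ABA (2.08% and 0.573%). The 5′ UTR gave 5 higher and 6 lower of 191 untreated, and 14 and 4 of 223 with ABA. ABA in wild type gave 0 higher and 1 lower of 112 in the 3′ UTR. The places differ in level as well: the median PSI in the 3′ UTR was 31.3% in untreated rbm25-1 and 26.5% in wild type, against 3.88% and 4.35% in the coding part. Short introns with a wild-type PSI from 50 to 90% were higher in 12 of 146 in untreated rbm25-1 and 9 of 162 with ABA, against 5 of 720 and 22 of 762 of those with a wild-type PSI from 1 to 10%. The part of level in the counts by place was not tested.

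**Figure D4:**
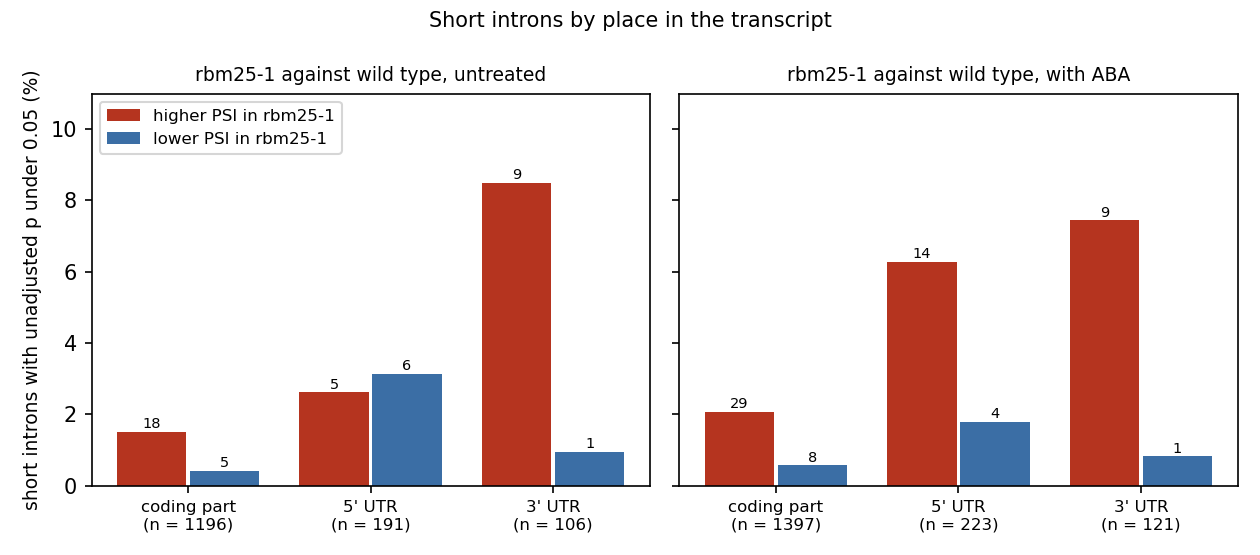
Share of short introns, in percent, with an unadjusted p under 0.05 and higher or lower PSI in rbm25-1, by place in the annotated transcript (coding part, 5′ UTR, 3′ UTR), untreated on the left and with ABA on the right (numbers above bars are intron counts). The 3′ UTR has 9 higher and 1 lower in each comparison, and no error bars are drawn because each intron has 1 value per group.

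Introns with higher retention in rbm25-1 had weaker 3′ splice sites by median, while their 5′ splice sites scored no lower. The median 3′ score was 5.64 for the 33 higher introns untreated and 5.29 for the 55 with ABA, against 6.91 and 7.01 for short introns with a p of 0.05 or more. The quartiles overlap, from 4.79 to 7.20 and from 3.43 to 8.12 in the higher introns, against 4.58 to 8.95 and 4.63 to 9.16 in the rest. The median 5′ score was 6.87 and 7.11 for the higher introns, against 6.51 and 6.50 for the rest. Introns with lower retention had median 5′ scores of 5.14 (13 introns untreated) and 5.35 (16 introns with ABA), both under those of the rest. Their median 3′ score was 6.76 untreated, slightly under the 6.91 of the rest, and 7.82 with ABA, above the 7.01 of the rest. Some introns are in both lists, as the 12 shared ones are, so the 2 comparisons do not give separate sets. RCE1, with a 3′ score of 10.5, shows that single introns depart from these medians. Of the higher introns, 54.5% untreated and 52.7% with ABA lay in the coding part, against 72.3% and 73.8% of the rest. The part of place and of retention level in these scores, and in the base composition below, was not tested. For ABA in wild type the median 3′ score was 7.44 for the 19 higher and 7.99 for the 20 lower introns with a strand.

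**Figure D5:**
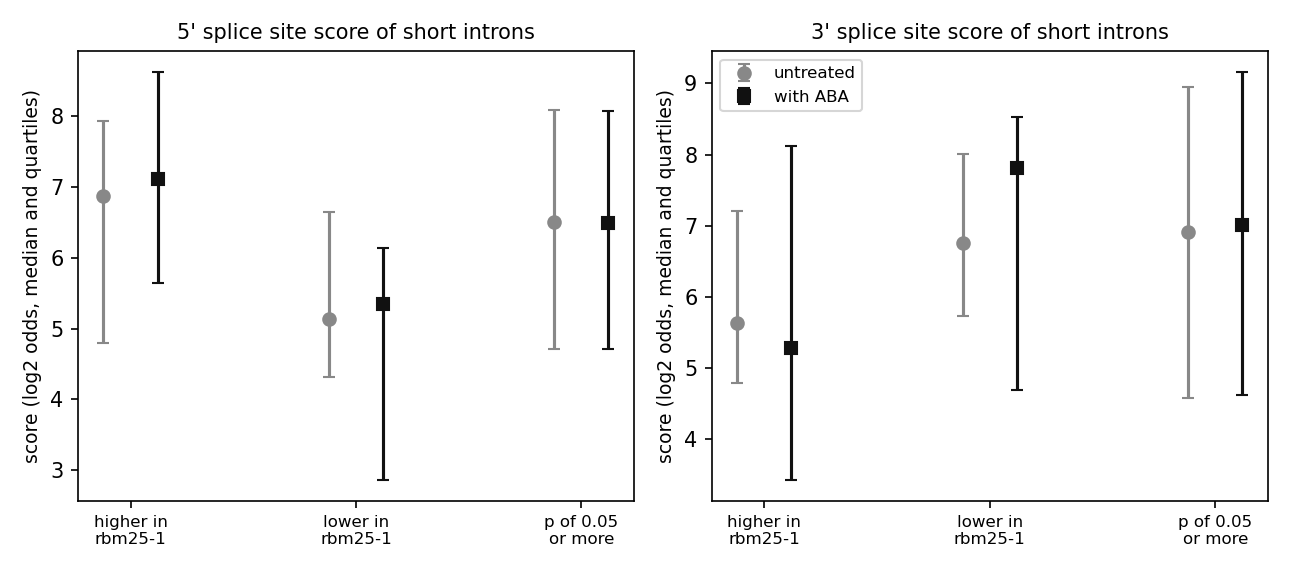
Splice site scores (log2 odds against all annotated introns, points are medians and bars run from the lower to the upper quartile) of short introns with higher retention in rbm25-1, lower retention, or an unadjusted p of 0.05 or more, untreated and with ABA. The 3′ score has medians of 5.64 and 5.29 in the higher introns and 6.91 and 7.01 in the rest, with overlapping quartiles.

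Base composition showed a small difference of the same kind. The higher introns had a median T content of 36.8% untreated and 36.7% with ABA, against 39.0% and 39.1% for short introns with a p of 0.05 or more, and the lower introns 43.0% and 43.1%. The median GC content of the higher introns was 36.4% and 36.6%, against 34.8% and 34.6% for those with a p of 0.05 or more. The lower introns had 30.2% untreated and 34.8% with ABA. All 33 and all 55 higher introns had GT-AG ends in the reference. The words CTAAC and CTGAC are common around plant branch points and were searched on the strand of the gene. At least 1 of them was present in 1 of 33 and 1 of 55 higher introns, and in 0 of 13 and 0 of 16 lower introns. The shares were 9.80% and 9.72% of the rest and 11.7% of the 65677 annotated introns of 100 nt or less. The lower introns, at 13 and 16, are too few to show whether the scarcity of these words is particular to the higher introns. The word CGGGCA, described as a binding site of human RBM25 in an exon, was in 5 of 2491 short introns (0.201%), in no intron that was higher or lower in either mutant comparison, and in 0.0837% of annotated short introns. A word is a match of letters within the intron only, and no exon was searched.

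Retention of a short intron would often end the reading frame. Of 1805 short introns inside coding sequence, 69.1% bring an in-frame stop when kept and 13.6% keep the frame with no stop. Among the higher introns in coding sequence 12 of 18 untreated and 20 of 29 with ABA bring a stop, which is 66.7% and 69.0%. The lower ones had a stop in 2 of 5 and 4 of 8. Unannotated junctions differ in this, with a stop in 13.6% of 250 against 78.0% of 1555 annotated ones.

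Length within the class had no steady relation to the calls. In untreated rbm25-1 the higher introns numbered 5 of 115 at 61 to 70 nt, 4 of 445 at 71 to 80 nt, 11 of 618 at 81 to 90 nt and 13 of 453 at 91 to 100 nt. With ABA they numbered 1 of 134, 21 of 500, 23 of 708 and 10 of 524 in the same classes. The shortest class, 15 to 60 nt, had 0 higher and 0 lower in either mutant comparison, and its 42 introns untreated had a median PSI of 93.7% in rbm25-1 and 93.1% in wild type. Just inside the limit, at 91 to 100 nt, there were 13 higher and 4 lower of 453 untreated and 10 and 2 of 524 with ABA. Just outside it, at 101 to 110 nt, there were 6 and 4 of 301 untreated and 16 and 3 of 333 with ABA. In shares, higher introns were 2.87% inside and 1.99% outside the limit untreated, and 1.91% inside and 4.8% outside with ABA.

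The expression of the host genes was read as a second measure. Of 29 hosts of higher short introns with an FPKM value in untreated rbm25-1, 2 were higher and 5 lower at q under 0.05 in the authors' deposited table (6.90% and 17.2%). Beside these stood 4.48% and 9.99% of all hosts of short introns, and 6.15% and 7.2% of all tested loci. With ABA, 8 were higher and 14 lower of 49, which is 16.3% and 28.6%, beside 17.7% and 14.3% of all loci. All hosts of short introns show a like split, with 199 higher and 356 lower of 1460 with ABA (13.6% and 24.4%). Hosts of introns with lower retention under ABA had 5 higher and 0 lower of 15 (33.3% and 0%), beside those same shares of all loci and all hosts. A relation of retention to host expression was not tested. For ABA in wild type the hosts of higher introns had 8 higher and 7 lower of 18 (44.4% and 38.9%), beside 26% and 30.1% of all loci. RCE1 and AT3G17100 combine higher retention with lower expression under ABA, at 189 FPKM in rbm25-1 against 299 FPKM in wild type (log2 -0.66, q = 0.000132) for RCE1 and 56.3 FPKM against 80.2 FPKM (log2 -0.51, q = 0.000132) for AT3G17100, in the authors' deposited table. NRPB1 had a log2 of 0.29 with ABA (q = 0.0396) and -0.01 untreated (q = 0.966) in the authors' deposited tables. Other hosts of introns higher in both mutant comparisons went either way with ABA. AT3G45050 was lower (log2 -0.48, q = 0.00128), while AT1G79090 (log2 0.33, q = 0.0156) and AT5G37310 (log2 0.33, q = 0.0311) were higher, in the authors' deposited table.

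Genes of ABA signalling and of splicing were looked up from lists. Short introns of ABA receptors, clade A PP2C phosphatases (which block the SnRK2 kinases until ABA is bound by its receptors), SnRK2 kinases, ABA transcription factors, SR splicing factors, U1 and U2AF proteins and the circadian clock had no unadjusted p under 0.05 in any comparison. Of the genes on these lists, 1 of 14 receptors, 5 of 9 phosphatases, 3 of 10 kinases, 2 of 12 ABA transcription factors, 4 of 20 SR factors, 0 of 7 U1 and U2AF genes and 1 of 13 clock genes had a short intron in the table of rbm25-1 with ABA. In the untreated table they were 1, 1, 2, 1, 4, 0 and 1 in the same order. Of all short introns, 1.97% were higher and 0.777% lower at an unadjusted p under 0.05 in untreated rbm25-1. The shares were 2.87% and 0.834% in rbm25-1 with ABA, and 1.04% and 1.15% for ABA in wild type. The lists hold few short introns, so having none under that p does not set these genes apart. The 7 genes of the U1 and U2AF list were U1-70K, U1A, PRP40A, PRP40B, PRP40C, U2AF35B and RBM25 itself. The names U1C, PRP39A, U2AF35A, LUC7A, LUC7B, LUC7RL, U2AF65A and U2AF65B found no match and were not looked up. For the phosphatases 7 introns of 5 genes were measured in the ABA comparison of the mutant. ABI2 (AT5G57050) had 10.2% in rbm25-1 with ABA and 6.0% in wild type (p = 0.0764 in the authors' deposited table). HAB1 (AT1G72770), whose splice variants are known to act in ABA signalling, is represented in the short class by 3 unannotated junctions, of which 2 overlap, and these had 95.7%, 78.3% and 75% in rbm25-1 with ABA, against 100%, 86.7% and 82.6% in wild type with ABA, with p of 0.341 to 0.946 in the authors' deposited table. ABI5 (AT2G36270), a bZIP factor of seed and seedling arrest, had 13.5% in rbm25-1 with ABA and 1.85% in wild type (p = 0.191 in the authors' deposited table).

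Of 18 other RNA-binding regulators, 6 had a short intron in the untreated table, and the intron of AT1G28060 was the one with an unadjusted p under 0.05. GRP7 (AT2G21660), a glycine-rich clock-controlled protein that regulates its own splicing, had 72.7% in untreated rbm25-1 and 64.8% in wild type at a 51-nt junction (p = 0.0542), and 77.2% in rbm25-1 with ABA and 70.98% in wild type (p = 0.875), in the authors' deposited tables. Of 8 flowering regulators 2 had short introns in each mutant comparison, and AGL31 was the one under an unadjusted p of 0.05. FLM (AT1G77080, also MAF1), its relative, had 3.64% in rbm25-1 with ABA and 11.9% in wild type at its 81-nt intron (p = 0.197), and 4.65% untreated in rbm25-1 and 4.55% in wild type (p = 0.989), in the authors' deposited tables.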

How the data were processed

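Per the labels, polyadenylated RNA of bulked seedlings was sequenced. Per the submitters' processing notes the tools were Trimmomatic 0.32, TopHat2 2.0.13, Cufflinks 2.2.1 and Cuffdiff, with the build TAIR10. Which program called the splicing events, with which test and read minimum, is not given in the sources used here. Per the file headers, the authors deposited 3 splicing tables with a percent (PSI) per event and group, a signed difference in PSI as a score, and an unadjusted p-value. They also deposited 3 gene tables with FPKM per group, a log2 fold change, a p-value and an adjusted q-value. No table gives counts per event or per sample, so depth is unknown and no SD, interval or test between samples can be given.

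From these, events whose difference did not match both PSI values within 0.015 points were left out (28, 28 and 33 events, of which 5, 5 and 6 were short introns, in the order rbm25-1 untreated, rbm25-1 with ABA, ABA in wild type). Benjamini-Hochberg adjustment was applied here to the deposited p-values over all readable events of a table, with a threshold of 0.05, and the adjustment was tested on simulated data. Every difference is rbm25-1 minus wild type, or ABA minus untreated. The PSI of wild type was the same in both tables that hold it for all 1410 untreated and 1433 ABA introns compared, so the 4 groups could be set side by side. Intron sequences, gene names and places came from TAIR10.1 (RefSeq), in which 95.8%, 95% and 95.7% of all retained introns had GT-AG ends at the deposited TAIR10 coordinates. Splice site scores are log2 odds over 9 bases (3 exon, 6 intron) and 15 bases (14 intron, 1 exon), from 133345 annotated introns of 30 nt or more. The 6 introns without a strand have no sequence features, and introns within UTRs are not printed. Software was Python 3.11.15, pandas 2.3.3, numpy 2.4.6 and matplotlib 3.10.9.

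Named introns were, per comparison and direction, the 8 with the smallest p among those with an unadjusted p under 0.05 and at least 10 points of difference, up to 12 with an unadjusted p under 0.05 in both mutant comparisons, and members of the gene lists under that p. The introns of ABI2, HAB1, ABI5, GRP7 and FLM were named after their values were seen. One intron that the rule names is not reported here. Of 155 list names 145 matched the annotation, and most of those without a match were on the U1 and U2AF list. The members and lists were chosen with earlier results of these data known.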

Additional observations from a re-analysis of the deposited data

How the results depend on the processing

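No short intron passed the adjusted p under any alternative tried (leaving out events with both PSI at 0 or both at 100, adjusting over retained introns alone, limits of 90 or 110 nt, GT-AG introns, 1 event per intron, hosts of 5 FPKM or more, annotated junctions). With an unadjusted p under 0.01 the higher and lower counts were 4 and 4 in untreated rbm25-1, 8 and 2 in rbm25-1 with ABA, and 0 and 2 for ABA in wild type, so the lean to higher retention in untreated rbm25-1 is not seen there. With at least 10 points of difference they were 19 and 4, 34 and 11, and 9 and 9. A limit of 90 nt left 20 higher in untreated rbm25-1 and 12 higher for ABA in wild type, by taking fewer introns. Annotated junctions alone, chosen after seeing the data, left 10 lower in rbm25-1 with ABA. Introns under the threshold in both mutant comparisons numbered 12, against 0 at 0.01 and 7 at 10 points. The other 82 counts stayed within 1.5 times. The 61 adjusted p-values of introns named by rank, by list or for both mutant comparisons ran from 0.402 to 0.988, from 0.323 to 0.800 without events at 0 or 100 in both groups, and were 1 when adjusted over retained introns alone. No paired analysis was possible because the tables hold 1 value per group, and for the same reason no replicate could be left out. The unknown read number behind each PSI limits every low-level intron.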
